A study of Mus musculus with 12 samples.

Results

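The miR-23, miR-27 and miR-24 miRNAs come from a pair of paralogous clusters, each of which carries the 3 miRNAs in one primary transcript. Their levels were taken as the rows of the array table with the names mmu-miR-23a, mmu-miR-23b, mmu-miR-27a, mmu-miR-27b and mmu-miR-24, without starred names, which are 5 of 1096 miRNA names measured in all 12 samples. The samples were quadriceps muscle taken at postnatal day 7 from 6 cofilin-2 null mice (KO) and 6 wild-type mice (WT), all of the strain C57Bl/6 and described by the methods as littermates. Cofilin-2 is the muscle form of an actin-depolymerizing protein, and mice without it develop a myopathy and die at about the age at which the muscle was taken. The WT samples were labelled with Cy5 and the KO samples with Cy3, so that the genotypes and the dyes cannot be told apart. A sample is one mouse, and the values are normalized intensities on a linear scale.

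miR-27 is known to repress Pax3, a transcription factor of muscle progenitors, and myostatin, which limits muscle growth. miR-23a is known to repress the ubiquitin ligases atrogin-1 and MuRF1, which mark muscle proteins for degradation. miR-24 is known for its effect on cell cycle genes such as E2f2 and on the differentiation of myoblasts. Both clusters are also known for high levels in endothelial cells, where miR-23 and miR-27 act in the growth of vessels. In muscle tissue, a lower signal from fewer cells of a type and a lower signal from less RNA per cell cannot be told apart.

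The mature sequences are shown because the seed, bases 2 to 8 counted from the 5′ end, decides which messages a miRNA binds. Of the 5 members, 4 were matched to a mature sequence in the RefSeq table of GRCm38.p6, and miR-23b is given by name only. The antisense miRNA miR-3074-5p and the related miR-128 are shown for comparison, and capitals mark the seed.
miR-23a: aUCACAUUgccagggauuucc
miR-27a: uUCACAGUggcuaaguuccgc
miR-27b: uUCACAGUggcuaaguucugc
miR-24: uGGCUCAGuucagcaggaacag
miR-128: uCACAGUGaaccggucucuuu
miR-3074-5p: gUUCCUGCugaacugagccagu

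miR-27a and miR-27b have the same seed and were identical at 20 of 21 bases, with the single substitution C19U from miR-27a to miR-27b. Their values cannot be taken as free of signal from one another, and how far the probes separate them was not tested. The sequence of miR-23b was not compared with that of miR-23a. How far the probes separate these paralogs was not tested either, so that their values may also share signal. Between miR-23a and miR-27a the first 8 bases differ by A1U and U7G, so that 6 of the 7 bases of the seed are the same. miR-27a shares a run of 8 bases with miR-128, from base 2 to base 9 in miR-27a and from base 1 to base 8 in miR-128. miR-24 has another seed.

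In GRCm38.p6 the hairpins Mir23a, Mir27a and Mir24-2 lie on the plus strand of chromosome 8, at chr8:84208518-84208592, chr8:84208672-84208758 and chr8:84208815-84208921, a span of 404 bases that lies within no annotated gene of the RefSeq table. Mir23b, Mir27b and Mir24-1 lie on the plus strand of chromosome 13, at chr13:63300484-63300557, chr13:63300712-63300784 and chr13:63301208-63301275, a span of 792 bases within the bounds of Aopep, which encodes an aminopeptidase. Mature miR-24 is the same in both clusters, so that its one row on the array sums what both loci make. Mir3074-2 and Mir3074-1 lie on the opposite strand over Mir24-2 and Mir24-1, and bases 1 to 20 of miR-24 are the reverse complement of part of miR-3074-5p.

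After the normalization by the authors the intensities of a WT sample summed to 594311 to 626783 and those of a KO sample to 610239 to 636136. All 5 members were bright enough for the test of KO against WT, which covered the 370 miRNAs whose mean over the 12 samples reached 32. KO1 stood apart from its group: its mean correlation with the other KO samples over these miRNAs was 0.848, against 0.907 to 0.945 for KO2 to KO6 and 0.949 to 0.970 in WT. Without KO1 the log2 changes of the 5 members lay between -0.31 for miR-24 and -0.90 for miR-27b. The number of mice limits the precision of every comparison.

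The miR-23 and miR-27 miRNAs were all lower in KO, with geometric means at 0.540 to 0.572 of those in WT, whereas miR-24 was at 0.842. Past the unadjusted threshold of 0.05, which the methods use, were 4 of the 5 members, all lower in KO, where 9.73% of all tested miRNAs passed in that direction. After Benjamini-Hochberg adjustment over all tested miRNAs none of the 5 passed, where 0.270% of all tested miRNAs passed as lower. The median log2 change of the 5 was -0.87, against -0.08 over all miRNAs tested, whose 10th and 90th percentiles were -0.65 and 0.70.

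The intensity of miR-23a was lowest in WT4 at 2550, had a median of 4001.5 and reached 5847 in WT2. In KO it ran from 1363 in KO1 through a median of 2127 to 3672 in KO5. The groups overlapped through KO4 and KO5, and the other 4 KO samples were below every WT sample. The WT mean was 4116 ± 1378 (SD, n = 6), against a KO mean of 2366 ± 848 (SD, n = 6), and the log2 change was -0.80 (95% interval -1.43 to -0.18, adjusted p = 0.132 from limma).

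miR-23b, its paralog from chromosome 13, had the clearest separation of the 5 members. It was between 4072 in WT4 and 7725 in WT3, with a median of 5377, and between 1963 in KO1 and 4411 in KO5, with a median of 3248. Here 5 of the 6 KO samples lay below every WT sample, with KO5 as the exception. The WT mean was 5824 ± 1546 (SD, n = 6), against a KO mean of 3210 ± 875 (SD, n = 6), a log2 change of -0.87 (95% interval -1.39 to -0.34, adjusted p = 0.0790 from limma). Without KO1, the lowest sample, its log2 change was smaller, at -0.73, and its adjusted p was 0.0471 from limma. Over all tested miRNAs the count past the adjusted threshold rose from 5 to 49 when KO1 was left out. Passing in that setting was therefore not particular to miR-23b. The exact permutation test of miR-23b gave p = 0.0043, two-sided.

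miR-27a was dimmer, between 249 in WT4 and 564 in WT5 with a median of 423.5, and between 117 in KO2 and 404 in KO6 with a median of 202.5. KO5 and KO6 lay within the range of WT, and the other 4 KO samples lay below it. The WT mean was 423 ± 116 (SD, n = 6), against a KO mean of 239.3 ± 107 (SD, n = 6), a log2 change of -0.89 (95% interval -1.55 to -0.23, adjusted p = 0.127 from limma).

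miR-27b was between 785 in WT4 and 1580 in WT3 with a median of 1183.5, and between 290 in KO2 and 1197 in KO6 with a median of 674.5. KO6 was above the WT median, KO5 was just within the WT range, and the other 4 KO samples were below it. The WT mean was 1220 ± 307 (SD, n = 6), against a KO mean of 705.7 ± 300.4 (SD, n = 6), a log2 change of -0.87 (95% interval -1.54 to -0.21, adjusted p = 0.127 from limma). Among the 370 miRNAs tested, miR-27a, miR-27b, miR-23b and miR-23a had the ranks 12, 14, 15 and 22 from the largest fall.

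miR-24, the third miRNA of both clusters, was between 5715 in WT4 and 7902 in WT1 with a median of 7510.5, and between 4687 in KO5 and 7315 in KO1 with a median of 6030. The groups overlapped widely, with 2 of the 6 KO samples, KO3 and KO5, below every WT sample. KO1, the lowest KO sample for miR-23a and miR-23b, was the highest KO sample for miR-24. The WT mean was 7015 ± 946 (SD, n = 6), against a KO mean of 5922 ± 923.98 (SD, n = 6), a log2 change of -0.25 (95% interval -0.63 to 0.14, adjusted p = 0.490 from limma), at rank 127 from the largest fall. The exact permutation test of miR-24 gave p = 0.0909, two-sided.

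The count of KO samples below every WT sample was thus at least 4 of 6 for each miR-23 and miR-27 miRNA, which 14.1% of the 370 miRNAs reached. The count of WT samples above every KO sample did not set miR-24 apart. It was 5 for miR-23b, 4 for miR-23a, miR-27a and miR-24, and 3 for miR-27b, and its share over all miRNAs was not computed. The exact permutation p of miR-23a was 0.0260 and that of both miR-27a and miR-27b was 0.0195, where 6 samples against 6 allow no p below 0.0022. Relative to the mean, the spread among mice was wider in KO for the miR-27 miRNAs, though the SD itself was not larger. The SD was 42.6% of the mean for miR-27b and 44.5% for miR-27a, against 25.1% and 27.4% in WT. For miR-23b it was 27.3% in KO and 26.5% in WT, and for miR-24 it was 15.6% and 13.5%. These differences in spread were not tested.

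**Figure D1:**
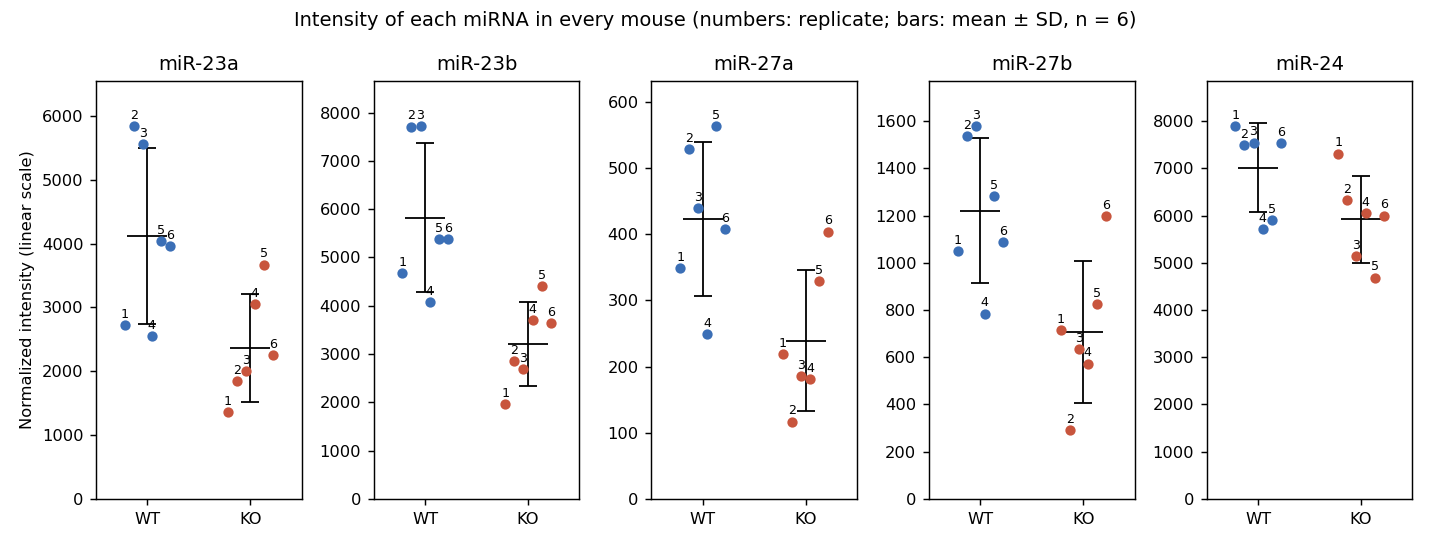
Normalized intensity on a linear scale that starts at 0 for each of the 5 miRNAs, with 1 point for each mouse, its number beside it, and the mean ± SD of the 6 mice of a genotype. For miR-23b 5 of the 6 KO points lie below every WT point, whereas for miR-24 2 of 6 do. Above every KO point lie 5 of the 6 WT points for miR-23b and 4 for miR-24.

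Whether members changed by different amounts was asked within samples, from the difference of the log2 values of each of the 10 pairs. This removes the brightness of the probes and any factor that acts alike on both miRNAs of a sample. It does not remove an effect of the dye that differs between probes, which was not tested. For the paralogs miR-23a and miR-23b the KO minus WT difference was 0.06 (exact 95% interval -0.16 to 0.28), and for miR-27a and miR-27b it was -0.02 (exact 95% interval -0.29 to 0.25). Between miRNAs of one cluster the intervals were wider, from -0.60 to 0.73 for miR-23a minus miR-27a and from -0.64 to 0.65 for miR-23b minus miR-27b. Such intervals are exact only if KO differs from WT by a shift alone. The SD was 0.31 in WT and 0.67 in KO for the first pair, and 0.12 and 0.69 for the second, so that here they are approximate. No difference was detected in these pairs, but for the pairs within a cluster the intervals leave room for one of up to 0.73 on the log2 scale.

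Against miR-24 all 4 others were lower in KO by more than miR-24 itself, with differences of -0.56 for miR-23a, -0.62 for miR-23b, -0.64 for miR-27a and -0.62 for miR-27b. The exact permutation p was 0.0433 for miR-23b and 0.0866 to 0.139 for the other 3. After adjustment over the 10 pairs all 4 had p = 0.346 by the permutation test. The interval for miR-23b minus miR-24 was -1.23 to -0.04, and the other 3 intervals included 0. The permutation p of miR-23b minus miR-24 was above 0.05 with any 1 of WT2, WT3, WT5, KO1, KO2 or KO3 left out, up to 0.0887 without KO1, and 0.0625 by exact sign flips with the replicate number as a block. Without KO1 the difference for miR-23a became -0.35, and without KO2 the one for miR-27b became -0.37. After adjustment the change of miR-24 was therefore not separated from those of the other members at this number of mice.

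**Figure D2:**
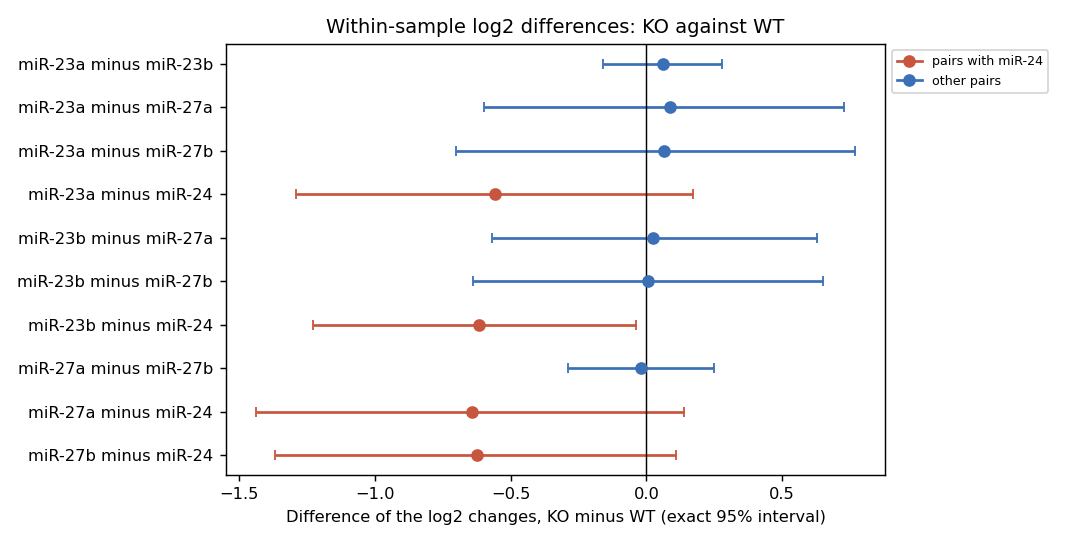
Difference between KO and WT in the within-sample log2 difference of each of the 10 pairs of miRNAs, with exact 95% intervals from the permutation test, n = 6 mice in each genotype. The 4 pairs with miR-24 are centred at -0.56 to -0.64 and the other 6 pairs near 0, and of all 10 intervals the one of miR-23b minus miR-24 leaves out 0.

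How the members varied among mice of one genotype was examined on log2 values, for 10 pairs in each genotype, with p-values adjusted over the 20. In WT the miR-23 and miR-27 miRNAs went together: WT4 had the lowest value of all 5 members, and WT2 and WT3 had the highest and next highest values of miR-23a, miR-23b and miR-27b. Over the 6 pairs of these miRNAs Pearson's r in WT was 0.71 to 0.97 (adjusted permutation p of 0.0139 to 0.238) and Spearman's rho 0.77 to 1 (adjusted permutation p of 0.0278 to 0.228), and r passed after adjustment in 3 of the 6. For miR-23b and miR-27b, which share a cluster, r was 0.95 (exact permutation p = 0.0014, adjusted p = 0.0139) and rho was 1 (exact permutation p = 0.0028, adjusted p = 0.0278). Without WT2 and WT3, the samples farthest from the median, r was 0.92. For miR-23a and miR-27a, which share the other cluster, r was 0.79 (exact permutation p = 0.0472, adjusted p = 0.135) and rho was 0.83 (exact permutation p = 0.0583, adjusted p = 0.194). Without WT1 and WT4 this r was 0.10, so that it rests on those samples.

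In KO the paralogs went together, and the 4 pairs of a miR-23 with a miR-27 miRNA had r of 0.23 to 0.44, none of which passed. How far the probes of paralogs share signal was not tested. For miR-23a and miR-23b r was 0.95 in KO (exact permutation p = 0.0069, adjusted p = 0.0347) and rho was 0.94 (exact permutation p = 0.0167, adjusted p = 0.0667). Without KO1 and KO5 this r was 0.80. For miR-27a and miR-27b r was 0.96 (exact permutation p = 0.0014, adjusted p = 0.0139) and rho was 1 (exact permutation p = 0.0028, adjusted p = 0.0278), and r was 0.94 without KO2 and KO6. For miR-23b and miR-27b r was 0.28 (exact permutation p = 0.592, adjusted p = 0.696) and rho was 0.20 (exact permutation p = 0.714, adjusted p = 0.793), and r was 0.55 without KO1 and KO5. For miR-23a and miR-27a r was 0.35 (exact permutation p = 0.488, adjusted p = 0.681) and rho was 0.31 (exact permutation p = 0.564, adjusted p = 0.793), and r was 0.24 without KO1 and KO5.

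KO1 was the lowest sample for both miR-23 miRNAs but not for the miR-27 miRNAs, where KO2 was the lowest, at 290 for miR-27b against 573 or more in the other KO samples. KO5 was the highest for the miR-23 miRNAs and KO6 for the miR-27 miRNAs. The within-sample difference miR-23b minus miR-27b had an SD of 0.12 in WT, with values between 2.07 and 2.38, and an SD of 0.69 in KO, with values from 1.46 in KO1 to 3.30 in KO2. Whether the correlations or the spread differ between the genotypes was not tested.

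For miR-24 no pair passed in either genotype, with r of 0.23 to 0.50 in WT and -0.75 to -0.22 in KO, rho of -0.09 to 0.26 and -0.77 to -0.43, and adjusted permutation p-values of 0.212 to 0.707 for r and 0.228 to 0.919 for rho. With a pair of samples left out, these r ran from -0.85 to 0.53.

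**Figure D3:**
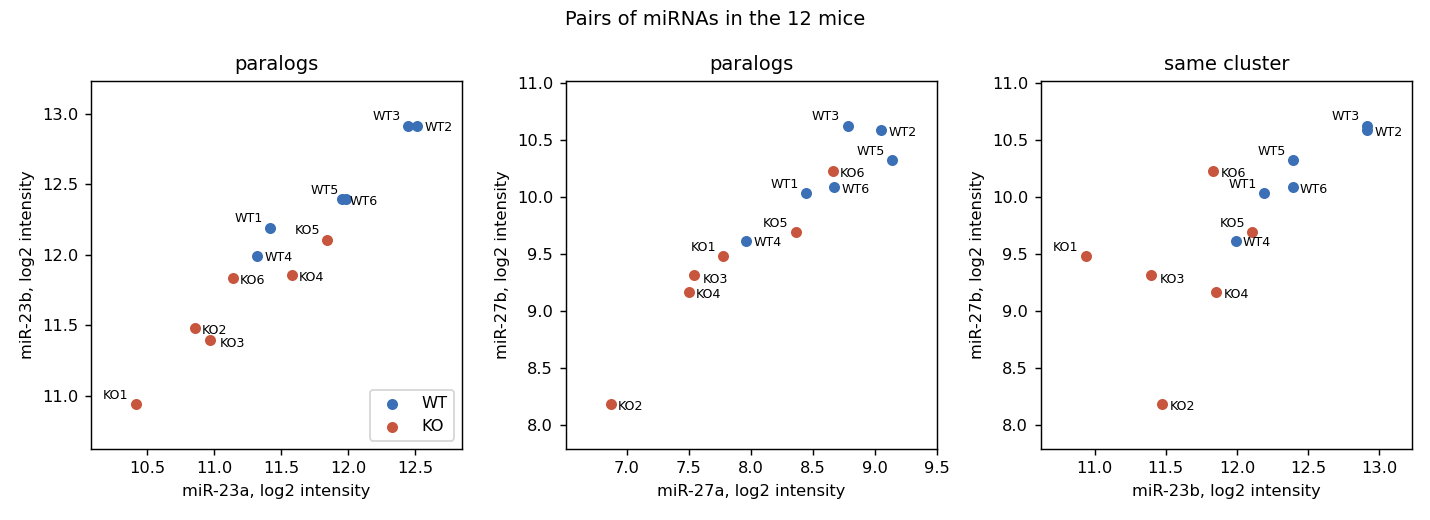
log2 intensity of pairs of miRNAs in the 12 mice, WT in blue and KO in red, for miR-23a and miR-23b, for miR-27a and miR-27b, and for miR-23b and miR-27b of one cluster. The paralogs lie along a line in both genotypes (r of 0.95 and 0.96 in KO), whereas in the third panel the KO points scatter (r = 0.28) and the WT points do not (r = 0.95).

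The other products of these hairpins were at the dim end of the array. Of the 9 rows from the opposite arms and from the antisense hairpins, 8 had a mean intensity under 32 and were not tested. The row tested was miR-23a*, the opposite arm of miR-23a, at 24 to 75 in WT and 30 to 35 in 5 of the KO samples, with 166 in KO1. Its log2 change was -0.09 (95% interval -1.05 to 0.87, adjusted p = 0.946 from limma). The other opposite arms were at 3 to 46 in WT and 1 to 44 in KO. Of the antisense hairpins, miR-3074-1-3p and miR-3074-2-3p were at 11 to 25 in WT and 8 to 24 in KO, and miR-3074-5p was at 14 to 31 in WT and 15 to 42 in KO.

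Of the other miRNAs whose first 9 bases hold bases 2 to 7 of a member, the array carried 4, and 3 were tested. miR-128, which shares the run of 8 bases with miR-27a, was between 865 in WT6 and 1508 in WT2 and between 699 in KO3 and 1205 in KO6. KO2, KO3 and KO4 lay below every WT sample. The WT mean was 1283 ± 244 (SD, n = 6), against a KO mean of 919.5 ± 206.2 (SD, n = 6), a log2 change of -0.49 (adjusted p = 0.220 from limma) that passed the unadjusted threshold. The log2 changes of miR-673-5p and miR-484 were -0.33 and -0.16 and did not pass, where 19.5% of all tested miRNAs passed in either direction, and miR-742* had intensities of 0 to 4.

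Markers of the cell types in muscle were set beside the clusters. miR-126-3p, made from an intron of the endothelial gene Egfl7, was between 2230 in WT6 and 4741 in WT3 and between 760 in KO2 and 2705 in KO6, and 4 of the 6 KO samples lay below every WT sample. Its log2 change was -1.20 (95% interval -1.87 to -0.53, adjusted p = 0.0615 from limma), in the direction of miR-23 and miR-27. The opposite arm miR-126-5p was at 1 to 6, so that of this list of 2 only miR-126-3p bears on it. Over the 12 samples, after subtraction of the mean of its genotype, miR-126-3p had a Pearson's r of 0.86 with miR-27b, 0.74 with miR-27a, 0.24 with miR-23b, 0.15 with miR-23a and 0.26 with miR-24. It was not the closest to the miR-27 miRNAs. The r with miR-27b and miR-27a was 0.90 and 0.80 for miR-30c, 0.89 and 0.86 for miR-299*, and 0.88 and 0.93 for miR-496. KO2 was the lowest of all samples for miR-126-3p and for the miR-27 miRNAs, and KO6 was the highest KO sample. The part of the endothelial content of the muscle in the changes of the clusters was not tested.

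Of the muscle miRNAs, miR-1a, miR-133a, miR-133b and miR-206 were tested, with log2 changes between -0.38 and 0.17, and none passed the unadjusted threshold. miR-1a, named after the values were seen, took the place of miR-1 in the list, and miR-208b and miR-499 were at 1 to 30. The summed intensity of this list was 81016 to 93263 in WT and 78886 to 105688 in KO. After subtraction of the mean of the genotype, miR-133a had a Pearson's r of 0.78 with miR-23b, 0.68 with miR-23a, 0.64 with miR-27a, 0.50 with miR-27b and -0.09 with miR-24. For miR-133b these were 0.82, 0.73, 0.63, 0.48 and -0.21, in that order. The r of miR-1a and miR-206 is not given here. miR-143 and miR-145 of smooth muscle had log2 changes of -0.02 and -0.60, with sums of 3555 to 4909 in WT and 3241 to 6241 in KO. miR-199a-3p, miR-199a-5p and miR-214 of mesenchymal cells had -0.44, -0.18 and -0.03, with sums of 16074 to 21782 in WT and 14641 to 19988 in KO. None of these 5 passed the unadjusted threshold.

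Of 6 miRNAs of blood cells, miR-451 of red cells was tested, at 43 to 417 in WT and 16 to 318 in KO, with a log2 change of -0.94 (95% interval -2.43 to 0.55, adjusted p = 0.497 from limma). Its lowest KO value, 16, was in KO2. The other 5, miR-144, miR-142-3p, miR-142-5p, miR-223 and miR-150, were at 0 to 48. The 8 miRNAs of liver, nerve and epithelium were at 0 to 35 in every sample.

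**Figure D4:**
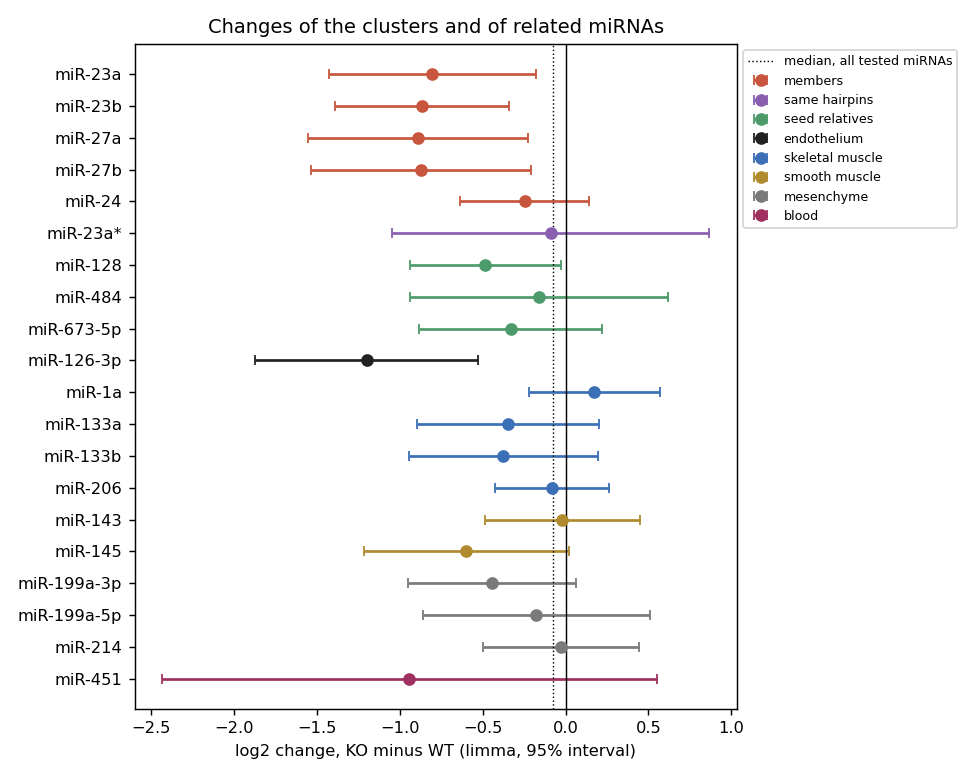
log2 change of KO against WT with the 95% interval from limma, n = 6 mice in each genotype, for the 5 members, the tested miRNA of the same hairpins, miRNAs with related seeds and markers of cell types, with the median of all 370 tested miRNAs as a dotted line at -0.08. The intervals of miR-23a, miR-23b, miR-27a, miR-27b, miR-126-3p and miR-128 lie below 0 before adjustment, and those of the others include 0.

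Among 365 other tested miRNAs, those with the highest mean Pearson's r with the 5 members were named. This r was taken over the 12 samples after subtraction of the mean of the genotype. They were miR-199a-3p (mean r = 0.63), miR-434-3p (0.61), miR-380-3p (0.60), miR-181b (0.60) and miR-337-3p (0.60). All 5 had an r of 0.57 to 0.89 with each miR-23 and miR-27 miRNA and between -0.10 and 0.22 with miR-24. The members did not share 1 pattern on this measure. Each miR-23 and miR-27 miRNA had a mean r of 0.43 to 0.47 with the other members, and miR-24 had an r of -0.22 to 0.01 with each of them. miR-199a-3p was the closest, with an r of 0.83 with miR-23b and 0.77 with miR-27b, and it was lowest in WT4 among the WT samples, as the members were. Their log2 changes were -0.44 for miR-199a-3p, -0.72 for miR-434-3p, 0.92 for miR-380-3p, -1.32 for miR-181b and -0.92 for miR-337-3p, with miR-380-3p as the one with a positive value. Of these, miR-181b passed the adjusted threshold (adjusted p = 0.0113 from limma). None of the other 4 did, with adjusted p between 0.170 and 0.320 from limma. On this measure miR-133a was at rank 13, miR-133b at rank 16, miR-126-3p at rank 24 and miR-128 at rank 35.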

How the data were processed

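Quadriceps RNA of 12 mice was profiled by a service provider, with array probes for the mouse entries of miRBase version 17. The authors deposited normalized intensity values, linear and in whole numbers, with the normalization method, background correction and averaging of spots not given in the sources used here. An array gives no read depth. All sample columns were used and grouped by the genotype in their titles.

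Values under 1 were raised to 1 and taken to log2. Rows whose intensity over all samples averaged 32 or more were compared with limma 3.58.1 (lmFit, eBayes) in R 4.3.3, two-sided, with Benjamini-Hochberg adjustment over all 370, at a threshold of 0.05. Single values, within-sample differences and correlations were tested by exact permutation in Python 3.11.15 (all assignments of samples, or all 720 orders for a correlation), and intervals of differences were taken as the shifts that this test kept at 0.05. The limma fit and the permutation test were tested on simulated data. Sequences, coordinates and neighbours are those of RefSeq for GRCm38.p6, with array names matched to the arm that bears them in miRBase.

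The members, lists and tests were chosen with earlier results of these data known. The names given are the members, all rows of their hairpins, miRNAs with bases 2 to 7 of a member within their first 9 bases, 5 miRNAs most like the members, and lists of cell type markers, in which miR-1, miR-486 and miR-199b had no row of that name. Other settings tried were, for low values, raising them to 32, a pseudocount of 50, all rows, or a row mean of 500 or more. For scaling, each array was centred on its median, or quantile normalization or cyclic loess was run. For the test, the replicate number entered as a block (alone or after cyclic loess), the methods' t-test was run on both scales, or limma took a robust variance trend or array weights. Each sample was also left out. That the samples are separate mice is stated by the methods.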

Additional observations from a re-analysis of the deposited data

How the results depend on the processing

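All 5 members stayed lower in KO under every alternative and with each sample left out, and 4 members stayed past the unadjusted threshold with each sample left out. With rows limited to a mean of 500 or more, where miR-27a was too dim to be tested, 3 passed. The side of the adjusted threshold depended on the setting. With array weights, which gave KO1 a weight of 0.156, all 5 members passed. In that setting 115 of the 370 miRNAs tested passed, so that passing there was not particular to the members. The members had log2 changes of -0.951 for miR-23a, -1.016 for miR-23b, -1.05 for miR-27a, -1.03 for miR-27b and -0.416 for miR-24. Quantile normalization gave miR-24 a smaller change, -0.15, which did not pass. miR-23b alone, 1 member, passed with a pseudocount of 50 (-0.855), with the limit of 500 and with a variance trend (-0.866 in both), and without KO1. Over all miRNAs tested in these settings 14, 21, 14 and 49 passed, in that order. With a sample left out the log2 change of miR-23b ran from -0.967 to -0.734, and the count of members past the threshold from 0 to 1. The cause was not tested.

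Over all miRNAs, 5 passed the adjusted threshold. This count fell to 1 over all rows. It was 115 with array weights, 21 with the limit of 500, 14 with a variance trend and also with a pseudocount of 50, 11 for cyclic loess, 9 for the methods' t-test of linear values and 8 for quantile normalization. With a sample left out it ran from 3 (without WT3 or KO2) to 49 (without KO1), and was 11 without WT4 and 8 without KO4. The unadjusted count of 72 became 123 over all rows, 45 with the limit of 500 and 156 with array weights.

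Of the 6 differences between pairs near 0, miR-23a minus miR-23b stayed positive (0.0115 to 0.107 with a sample left out), 5 changed sign in some setting, and none passed after adjustment. With a pseudocount of 50 they were -0.0414 for miR-23a minus miR-27a, -0.106 for miR-23b minus miR-27a, -0.0399 for miR-23b minus miR-27b and 0.0661 for miR-27a minus miR-27b. After cyclic loess these 4 were -0.0067, -0.0873, -0.0392 and 0.0481, and after quantile normalization the last was 0.0252. With a sample left out they ran from -0.0606 to 0.259, -0.134 to 0.155, -0.203 to 0.165 and -0.0812 to 0.0516, and miR-23a minus miR-27b from -0.111 to 0.242. The 4 differences from miR-24 kept their sign and did not pass after adjustment in any setting run. With a sample left out they ran from -0.764 to -0.349 for miR-23a, -0.784 to -0.422 for miR-23b, -0.823 to -0.438 for miR-27a and -0.793 to -0.369 for miR-27b.

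The methods describe littermate pairs, but whether the replicate numbers mark them is not given in the sources used here. Same-numbered WT and KO samples had correlations of their deviations between -0.453 and 0.594, and 2 of 6 WT samples went best with their own number, so that the numbers were not taken as pairs. With the replicate block, 4 members passed the unadjusted and 0 the adjusted threshold, with adjusted p-values of 0.112 for miR-23b to 0.486 for miR-24 from limma, and over all miRNAs 4 passed. With cyclic loess and the block these counts were the same.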

Other observations

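Each member was also set against miR-126-3p, the endothelial marker, within samples, a comparison chosen after its values were seen. The KO minus WT difference of the log2 values was 0.95 for miR-24 minus miR-126-3p (exact 95% interval 0.28 to 1.66, exact permutation p = 0.0173, adjusted over the 5 pairs p = 0.0866). For the other members it was 0.39 for miR-23a, 0.33 for miR-23b, 0.31 for miR-27a and 0.33 for miR-27b, with exact permutation p-values of 0.0866 to 0.357. The last 4 intervals ran from -0.51 at the lowest to 1.26 at the highest, so that neither a like change nor a smaller change of miR-23 and miR-27 than of miR-126-3p was shown.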
